A study of Mus musculus with 12 samples.

Results

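The out-of-frame rearrangements of the T-cell receptor (TCR) beta locus were the rows that the deposited tables mark as Out, in which the V and J gene segments are joined in different reading frames. They numbered 79915 of 288925 unique rearrangements in all 12 libraries (27.7%), beside 205925 in-frame rearrangements and 3085 in-frame rearrangements that carry a stop codon. All libraries came from female C57BL/6 mice, 7 to 12 weeks old, that bore MC38 colon adenocarcinoma and had received anti-CTLA-4 and anti-PD-L1 antibodies, and no untreated group was analysed here. The 4 groups were 3 flow-sorted subsets of splenic CD8 T cells (CD27loCX3CR1lo, CD27hiCX3CR1lo and CX3CR1hi) and CD8 tumor-infiltrating lymphocytes (TILs), harvested 2 weeks after therapy began. Each group had 1 library from each of 3 experiments, called A, B and C here, of 10 mice each per the methods, and a library was taken as a pool of those mice. The TILs were taken with a CD8 selection kit rather than a sort. TCR DNA holds no CD27 or CX3CR1 readout, so the subset labels were not checked against markers.

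A beta-chain gene is assembled in the thymus from V, D and J segments, with bases trimmed from the segment ends and non-templated bases (N insertions) added by terminal transferase. The joins form without regard to reading frame. A T cell whose first allele is joined out of frame can still rearrange the other allele, and it then carries the failed join in its genome as a passenger. No protein is made from that join, so its V and J use reflects recombination, whereas in-frame joins have also passed selection on the receptor they encode. CDR3, the loop that contacts antigen, spans the join. Rearrangements were read from genomic DNA, in which one template is taken to stand for one rearranged allele.

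The depth of the out-of-frame set differed among the groups. The CD27hiCX3CR1lo libraries held 15873, 14579 and 21134 unique out-of-frame rearrangements in experiments A, B and C, and the CD27loCX3CR1lo libraries held 5222, 4954 and 6031. The CX3CR1hi libraries held 2954, 2283 and 4538, and the TIL libraries held 627, 683 and 1037. The same libraries held 19417, 18022 and 26517 out-of-frame templates (CD27hiCX3CR1lo), 7179, 6752 and 8100 (CD27loCX3CR1lo), 18218, 19941 and 57738 (CX3CR1hi) and 1873, 4234 and 7777 (TILs). A count of 0 of 1873 out-of-frame templates allows a share of up to 0.160%, and 0 of 57738 allows up to 0.00520%. Intervals and limits of this kind cover counting error alone.

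The most abundant out-of-frame rearrangement of each CX3CR1hi and TIL library is shown because these joins lead the template counts described further down. Each line runs 5′ to 3′ from the cysteine codon that opens CDR3 to the last base of the 87-base window in the tables. Capitals mark the bases between the last V base and the first J base, that is, N insertions together with D bases.

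CX3CR1hi, experiment A, TCRBV19-01 with TCRBJ01-04: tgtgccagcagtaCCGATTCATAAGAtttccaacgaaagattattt

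CX3CR1hi, experiment B, TCRBV13-03 with TCRBJ02-01: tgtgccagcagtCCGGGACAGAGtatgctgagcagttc

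CX3CR1hi, experiment C, TCRBV13-01 with TCRBJ02-07: tgtgccagcagGtgaacagtac

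TILs, experiment A, TCRBV04-01 with TCRBJ01-03: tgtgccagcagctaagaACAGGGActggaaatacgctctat

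TILs, experiment B, TCRBV19-01 with TCRBJ02-05: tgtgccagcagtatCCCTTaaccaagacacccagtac

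TILs, experiment C, TCRBV24-01 with TCRBJ02-07: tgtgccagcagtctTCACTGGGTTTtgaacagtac

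Only 2 out-of-frame rearrangements were found in all 3 experiments, each in 3 libraries, and they are shown because they hold few inserted bases.

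TCRBV17-01 with TCRBJ02-07, 7 templates in all: tgtgctagcagtatatgaacagtac

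TCRBV13-02 with TCRBJ01-02, 3 templates in all: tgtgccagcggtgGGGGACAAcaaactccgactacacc

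None of the 8 full CDR3s, which run past the window, has a length that is a multiple of 3 bases, and the same held for all 79915 out-of-frame rows. The first shared join has no inserted base. The join that led CX3CR1hi experiment C has a CDR3 of 25 bases with 1 inserted base and no D segment, the shortest among the 6 that led their libraries.

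The first comparison asked how V and J use in the in-frame rearrangements of a library departed from its own out-of-frame background. V use departed far more than J use. In-frame and out-of-frame profiles of the same library differed in 15.9% to 20.1% of their V use (median 18.9%, 12 libraries) and in 4.97% to 8.03% of their J use (median 6.08%), where the percentage is the share of rearrangements that would have to change gene for the profiles to match. For scale, the out-of-frame profiles of any pair among the 6 CX3CR1lo libraries differed by 2.01% to 5.04% in V use and 0.950% to 4.31% in J use. Those of pairs among the 6 CX3CR1hi and TIL libraries, which hold fewer rearrangements, differed by 4.04% to 11.7% in V use and 3.12% to 13.0% in J use. The J difference between frames thus lay above the out-of-frame range of the CX3CR1lo pairs and within that of the smaller libraries. The V difference was above the out-of-frame range of either set.

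Of 40 V and J genes with at least 10 out-of-frame rearrangements in all, 33 (82.5%) had in-frame use that differed from out-of-frame use in the mean of the 4 groups (edgeR quasi-likelihood test on unique rearrangements, Benjamini-Hochberg adjusted p under 0.05). Experiments were fixed blocks in this fit. Its p-values and SEs for the mean of the groups therefore measure residual spread among libraries that share mice, not spread over experiments. In-frame use was higher for 13 genes (32.5%) and lower for 20 (50%). They comprised 24 of 26 V genes and 9 of 14 J genes, and for 20 of those V genes and 7 of those J genes the ratio lay on the same side of 1 in all 4 groups. With TMM scaling, which shifted the median V ratio by 0.23 on the log2 scale, 15 genes were higher and 12 lower. The calls for TCRBV02-01 and TCRBV17-01 were lost and their sign turned under that scaling. With templates counted in place of unique rearrangements, 15 genes were called, and TCRBV17-01 passed in the opposite direction (log2 -0.17 by unique rearrangements, 0.79 by templates, adjusted p = 0.00571). The sign also turned for TCRBJ01-01 (log2 0.24 to -0.14), TCRBV05-01 (-0.28 to 0.08), TCRBV16-01 (0.30 to -0.01) and TCRBV19-01 (0.24 to -0.05), none of which passed by templates (adjusted p = 0.631 to 1.00, edgeR).

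The V genes enriched in frame were led by TCRBV12-02, TCRBV14-01, TCRBV29-01, TCRBV13-03 and TCRBV13-01. V genes encode CDR1 and CDR2, the loops that mostly contact the MHC molecule, together with the start of CDR3. TCRBV12-02 took 2.51% to 3.75% of out-of-frame rearrangements (median 3.04%, 12 libraries) and 3.16% to 5.93% of in-frame ones (median 5.69%). Its in-frame share was above its out-of-frame share in 12 of 12 libraries, and the fitted ratio was 1.82-fold (log2 0.86 ± 0.06 SE, edgeR adjusted p = 6.73e-09). TCRBV14-01 took a median of 2.20% out of frame and 4.15% in frame. It was higher in frame in 11 of 12 libraries, TIL experiment A being the exception, and its fitted ratio was 1.81-fold (log2 0.86 ± 0.06, adjusted p = 3.56e-09).

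TCRBV29-01 took 2.89% to 3.77% of out-of-frame rearrangements (median 3.46%) and 5.00% to 6.35% of in-frame ones (median 6.12%), with no overlap between the sets of 12 values. Its ratio was 1.79-fold (log2 0.84 ± 0.05, edgeR adjusted p = 1.09e-09). The RefSeq table of GRCm38.p6 lists its gene, Trbv29 (chr6:41271403-41271881), as a pseudogene, while 12569 of its rearrangements were in frame without a stop codon against 2805 out of frame. TCRBV13-03 (1.66-fold, log2 0.73 ± 0.06, adjusted p = 3.15e-08) and TCRBV13-01 (1.38-fold, log2 0.47 ± 0.05, adjusted p = 1.44e-06) were each higher in frame in 11 of 12 libraries. Both calls were lost when templates were counted.

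At the other end stood TCRBV10-01, TCRBJ02-06, TCRBV22-01, TCRBV24-01 and TCRBV21-01. TCRBV24-01 was the most abundant of them and one of the main V genes of the out-of-frame set. It took 4.31% to 6.71% of out-of-frame rearrangements (median 6.35%, rank 5 of the V genes by mean) and 0.883% to 1.43% of in-frame ones (median 1.15%), so the values did not overlap in any of the 12 libraries. The fitted ratio was 0.190 (log2 -2.39 ± 0.06, edgeR adjusted p = 9.59e-14). Its gene, Trbv24 (chr6:41218091-41218557), is listed as a V segment and not as a pseudogene.

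TCRBV22-01, whose gene Trbv22 (chr6:41212075-41212534) is listed as a pseudogene, took a median of 0.614% out of frame and 0.0961% in frame, and was lower in frame in 12 of 12 libraries (log2 -2.67 ± 0.18, adjusted p = 3.85e-09 in edgeR). TCRBV21-01, likewise listed as a V segment (Trbv21, chr6:41202587-41203044), was lower in frame in 11 of 12 libraries (log2 -2.23 ± 0.28, adjusted p = 4.78e-06). In TIL experiment C it took 0.322% in frame and 0.289% out of frame, from few rearrangements. TCRBJ02-06 is the J pseudogene Trbj2-6 (chr6:41543598-41543645). It gave 57 out-of-frame and 21 in-frame rearrangements over all libraries (log2 -2.99 ± 0.48, adjusted p = 6.67e-05).

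TCRBV10-01 (Trbv10, chr6:41091935-41092228, a pseudogene) gave 133 out-of-frame and 49 in-frame rearrangements. In the TILs it was seen in 4 out-of-frame and 0 in-frame rearrangements. With the 4 taken as exact, a floor of 3 in-frame counts over the group gives in-frame use 2.89-fold lower than out-of-frame use. The counting error of the 4 is not in that value, and the TIL ratio did not pass on its own (edgeR adjusted p = 0.0801). In the splenic groups the fitted log2 ratios were -3.39 (CD27loCX3CR1lo), -2.58 (CD27hiCX3CR1lo) and -3.45 (CX3CR1hi). TCRBJ01-07 (Trbj1-7, chr6:41535642-41535687) was seen in 83 out-of-frame, 35 stop-codon and 2 in-frame rearrangements, too few in frame for a fitted ratio. A further 8 V genes with under 10 out-of-frame rearrangements each (TCRBV06-01, TCRBV07-01, TCRBV08-01, TCRBV09-01, TCRBV11-01, TCRBV18-01, TCRBV25-01 and TCRBV28-01), all listed as pseudogenes, gave 1 to 8 out-of-frame and 0 to 2 in-frame rearrangements each. TCRBV12-03, also listed as a pseudogene, gave 0 out-of-frame and 2 in-frame rearrangements.

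Between these ends, TCRBV04-01 was the leading V gene of the out-of-frame set, with 7.33% to 8.68% (median 7.76%) against 3.53% to 4.52% in frame (log2 -0.89 ± 0.04, edgeR adjusted p = 3.46e-11, lower in frame in 12 of 12 libraries). In-frame use leaves out stop-codon rearrangements, which were 14.0% of the TCRBV04-01 joins made in frame. Their part in this ratio was not tested. TCRBV15-01 (log2 -0.80 ± 0.05), TCRBV20-01 (-0.71 ± 0.05) and TCRBV31-01 (-0.65 ± 0.08) were also lower in frame. Trbv31 (chr6:41557693-41558371) lies beyond the J genes, in the opposite orientation to the other V genes. TCRBV13-02 ranked first in frame with a mean of 9.02% ± 0.63 (SD, n = 12) and second out of frame with 7.66% ± 0.54. The J genes, which encode the end of CDR3, moved within a narrow range apart from TCRBJ02-06 and TCRBJ01-07. TCRBJ01-01 had the highest ratio by unique rearrangements at 1.18-fold (log2 0.24 ± 0.04, adjusted p = 4.52e-05), with the opposite sign by templates, and TCRBJ01-06 the lowest at 0.775 (log2 -0.37 ± 0.05, adjusted p = 2.36e-05).

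**Figure D1:**
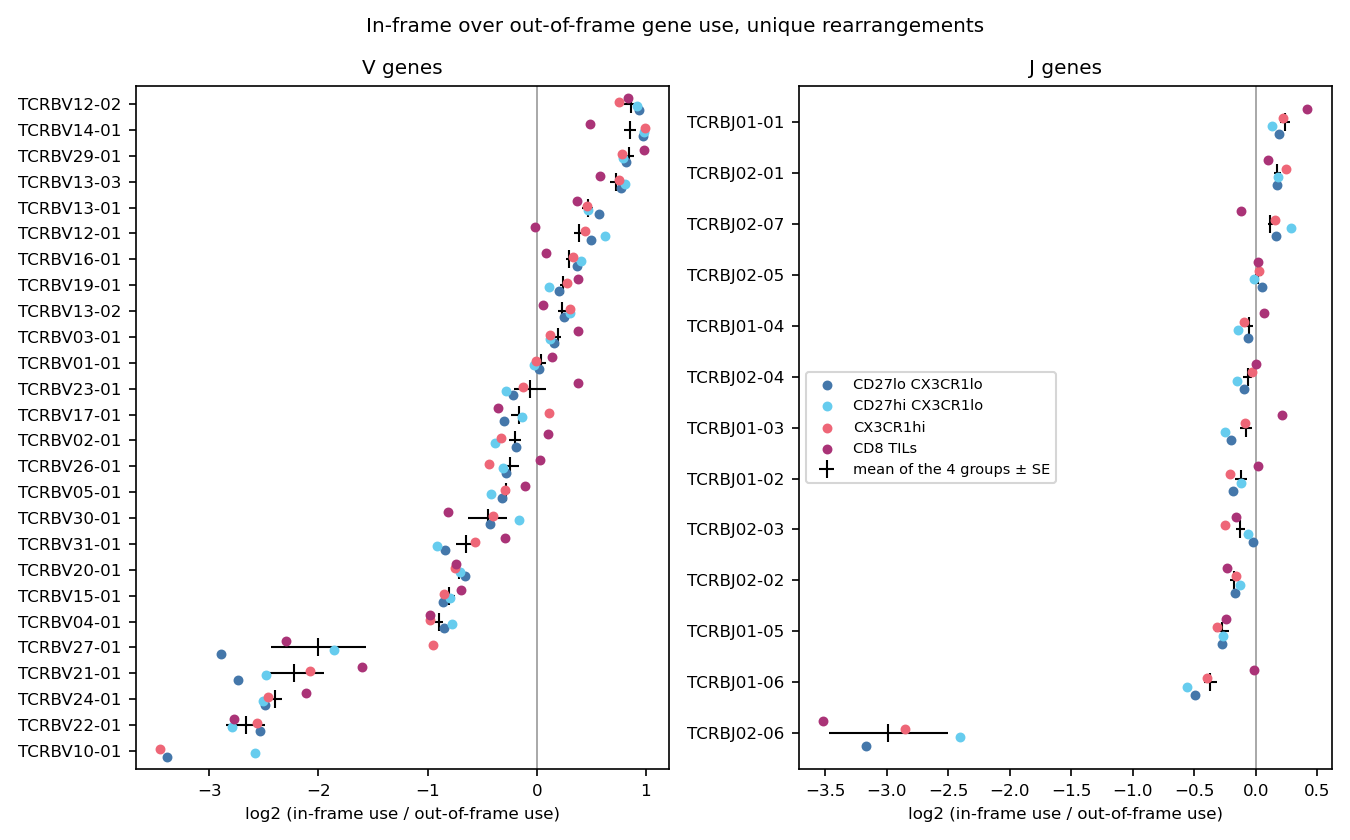
Log2 ratio of in-frame to out-of-frame use of each V gene (left) and J gene (right), from the fit on unique rearrangements; colored points are the 4 groups and black ticks with bars the mean of the groups ± SE. TCRBV10-01 is drawn without its TIL value, which has 0 in-frame rearrangements, and without a mean, and TCRBJ01-07 is left out; TCRBV12-02 and TCRBV14-01 lie highest, at 0.86, and the genes near -2 and below form a group apart.

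Read per gene, the out-of-frame share fell into separate ranges. The denominator here was all rearrangements of the gene, stop-codon ones included, since these are also joined in frame. Of 40 genes with at least 50 rearrangements, 33 had 16.5% (TCRBV14-01) to 40.8% (TCRBV31-01) of their unique rearrangements out of frame, and 7 had 58.9% to 71.9%. A join that is kept whatever its frame is out of frame in 2 of 3 cases, or 66.7%. The out-of-frame shares were 66.7% for TCRBV24-01 (Wilson 95% interval 65.7% to 67.8%, 7696 rearrangements), 66.8% for TCRBV21-01 (63.8% to 69.7%, 992) and 68.8% for TCRBV22-01 (65.4% to 72.0%, 744). They were 71.9% for TCRBV10-01 (65.0% to 77.9%, 185), 69.5% for TCRBJ02-06 (58.9% to 78.4%, 82) and 69.2% for TCRBJ01-07 (60.4% to 76.7%, 120, of which 35 carried a stop codon). TCRBV27-01 had the widest interval, 58.9% (45.9% to 70.8%, 56 rearrangements). The intervals of all 7 genes held 66.7%, and those of the other 33 lay below it. Across single libraries, TCRBV24-01 ranged from 64.7% to 71.4%.

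**Figure D2:**
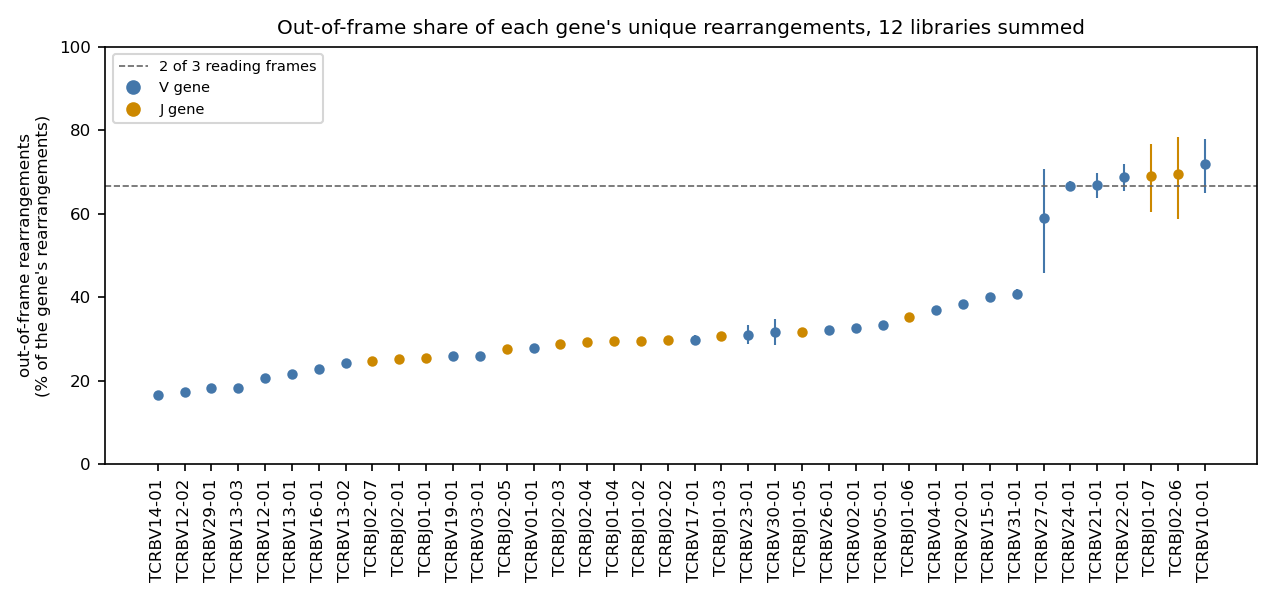
Percentage of each gene's unique rearrangements that were out of frame, stop-codon rearrangements counted in the denominator, with the 12 libraries summed and Wilson 95% intervals (counting error); the dashed line marks 2 of 3 reading frames. The 7 genes on the right lie between 58.9% and 71.9%, and the other 33 at or below 40.8%.

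The next comparison asked whether the out-of-frame background, and the ratio to it, was alike in the 4 groups. Most genes showed no group difference that passed the test. The in-frame to out-of-frame ratio differed among the groups for 1 of 40 genes (2.50%; edgeR F-test, adjusted p under 0.05), and 8 had an unadjusted p under 0.05. DESeq2 called 0 genes, with 3 at an unadjusted p under 0.05. The gene was TCRBJ02-07, the most used J gene. Out-of-frame use of TCRBJ02-07 was 19.3%, 18.3% and 18.2% in the CD27loCX3CR1lo libraries and 18.0%, 18.1% and 18.9% in the CD27hiCX3CR1lo libraries. It was 20.2%, 18.9% and 20.9% in CX3CR1hi and 20.6%, 25.7% and 22.3% in the TILs. The TIL libraries were the highest 2 and the fourth highest of the 12, and the lowest CX3CR1hi value lay within the range of the CX3CR1lo subsets. In-frame use ran from 19.7% to 23.2%, and the log2 ratio was 0.16, 0.29, 0.15 and -0.12 in CD27loCX3CR1lo, CD27hiCX3CR1lo, CX3CR1hi and TILs (adjusted p = 0.00355). This call was lost without experiment A (adjusted p = 0.0599) and without experiment B (0.0730).

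Out-of-frame use itself differed among the groups for 7 of 40 genes (17.5%; edgeR, adjusted p under 0.05), namely TCRBV27-01 and 6 J genes. TCRBV27-01 (Trbv27, chr6:41258121-41258579, a pseudogene) took 0.0126% to 0.0957% of out-of-frame rearrangements in the CX3CR1lo subsets, 0.169%, 0.0876% and 0% in CX3CR1hi, and 0.478%, 0.439% and 0.289% in the TILs (adjusted p = 7.92e-06). This rests on 3 out-of-frame rearrangements in each TIL library and 0 to 5 in the others. TCRBJ02-07 (adjusted p = 0.00029) and TCRBJ02-01 (0.0380) were higher in CX3CR1hi and TILs than in the CX3CR1lo subsets by 0.22 ± 0.04 and 0.20 ± 0.06 on the log2 scale. TCRBJ01-01 (adjusted p = 0.00575 among the groups) and TCRBJ01-02 (0.0326) were lower there, with log2 differences of -0.21 ± 0.07 and -0.22 ± 0.07 (adjusted p = 0.0204 and 0.0214 for this contrast in edgeR). TCRBJ01-03 (adjusted p = 0.00304 among the groups) took a mean of 5.35% in CD27loCX3CR1lo, 5.88% in CD27hiCX3CR1lo, 6.00% in CX3CR1hi and 3.90% in the TILs. TCRBJ01-04 (0.00575) took 6.81%, 7.80%, 7.29% and 6.17% in the same order. For these 2 genes the TIL mean was the lowest, the CX3CR1hi mean was not below both CX3CR1lo means, and the joint contrast did not pass (adjusted p = 0.0533 and 0.272). DESeq2 called 4 genes, the fit without the experiment block 5, and the fit without experiment A 2 (TCRBV27-01 and TCRBJ02-07).

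One measured property moved with these groups. An out-of-frame rearrangement was called a 1-base neighbour when 1 inserted or deleted base separated it from an in-frame rearrangement of the same library with at least 10 times its templates. Whether these rows are joins of their own or sequencing or PCR errors in copies of the abundant in-frame rearrangement was not tested. Such neighbours were 0% to 0.0957% of out-of-frame rearrangements in the 6 CX3CR1lo libraries. They were 5.59%, 5.87% and 4.03% in CX3CR1hi and 6.54%, 11.0% and 9.55% in the TILs. The number of in-frame rearrangements with 10 or more templates, which could have such neighbours, was 11 to 26 in the CX3CR1lo libraries, 513 to 1028 in CX3CR1hi and 66 to 229 in the TILs. The neighbours had a median of 1 template, and 26.8% to 49.3% of them in the CX3CR1hi and TIL libraries used TCRBJ02-07. Without them, out-of-frame use of TCRBJ02-07 was 20.1%, 22.8% and 20.6% in the TILs, its adjusted p was 0.208 for out-of-frame use and 0.0864 for the ratio, and 4 genes (TCRBV27-01, TCRBJ01-01, TCRBJ01-03 and TCRBJ01-04) differed among the groups.

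V genes also differed in the J cluster they were joined to out of frame. J genes lie in a TCRBJ01 and a TCRBJ02 cluster, each behind its own D gene. Over all V genes, 62.1% of out-of-frame and 65.3% of in-frame rearrangements used the TCRBJ02 cluster. TCRBV13-03 (67.9%, Wilson 95% interval 66.2% to 69.5%) and TCRBV17-01 (67.9%, 66.0% to 69.8%) used it most out of frame. TCRBV29-01 (50.7%, 48.8% to 52.5%), TCRBV01-01 (50.7%, 49.1% to 52.3%) and TCRBV31-01 (52.5%, 50.8% to 54.2%) used it least. The 3 TIL libraries used the TCRBJ02 cluster in 70.0%, 69.6% and 69.4% of out-of-frame rearrangements, above the 61.3% to 65.3% of the 9 splenic libraries. Of 251 V-J pairs with an expected number of at least 50, 203 lay within 1.2-fold of the product of their V and J shares out of frame, and the extremes were 0.552 (TCRBV21-01 with TCRBJ01-01) and 1.42 (TCRBV31-01 with TCRBJ01-04).

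Junctions differed by frame in the same direction in nearly all libraries. Out-of-frame CDR3s averaged 42.1 to 42.6 bases and in-frame ones 41.7 to 41.9. In-frame minus out-of-frame was -0.632 ± 0.166 bases (SD, n = 12 libraries), negative in 12 of 12 (two-sided exact sign-flip permutation test, p = 0.000488, the smallest that 12 libraries allow, adjusted p = 0.000732 over 6 junction measures). The spread of CDR3 length within a library was also wider out of frame, with an SD of 4.82 to 5.24 bases against 4.27 to 4.46 in frame (12 of 12, adjusted p = 0.000732, exact). CDR3s under 30 bases were 1.05% to 2.41% of out-of-frame and 0.150% to 0.258% of in-frame rearrangements. CDR3s over 54 bases were 0.438% to 0.996% and 0.0419% to 0.147%.

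N insertions averaged 3.89 to 4.23 bases out of frame and 3.42 to 3.56 in frame, a difference of -0.532 ± 0.101 (SD, n = 12, negative in 12 of 12 libraries, exact sign-flip adjusted p = 0.000732). Rearrangements with 10 or more N bases were 2.97% to 4.82% of the out-of-frame set and 1.38% to 2.26% of the in-frame set. Joins with no N base were 7.27% to 9.57% out of frame and 8.46% to 10.2% in frame, more frequent in frame in 11 of 12 libraries by 1.36 percentage points on average (exact sign-flip adjusted p = 0.00117). TIL experiment C was the exception. Bases trimmed from the V end averaged 2.71 to 3.17 out of frame and 2.60 to 2.72 in frame (12 of 12 lower in frame, adjusted p = 0.000732, exact). Bases trimmed from the J end differed by 0.0526, higher in frame in 8 of 12 libraries (exact adjusted p = 0.0425), and the sign was opposite in CX3CR1hi experiment C and the 3 TIL libraries. The 4 libraries of an experiment share mice, and over the 3 experiment means the smallest p this test allows is 0.25, which all 6 measures reached.

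**Figure D3:**
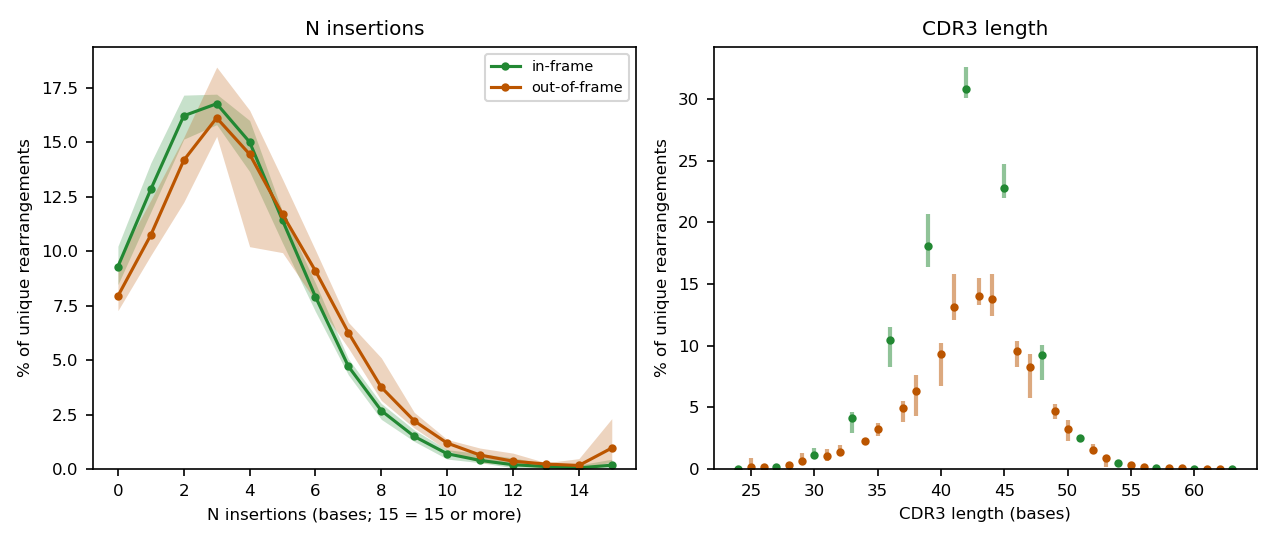
N insertions (left) and CDR3 length (right), both in bases, as a percentage of unique in-frame and out-of-frame rearrangements; points are the mean of the 12 libraries and the shaded area or vertical bars their range. The out-of-frame N curve lies below the in-frame curve from 0 to 4 bases and above it from 5 bases on, and out-of-frame lengths fall between the in-frame lengths, which are multiples of 3.

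For none of the 6 junction measures did the in-frame minus out-of-frame difference pass a test of CX3CR1hi and TILs against the CX3CR1lo subsets (exact permutation within experiments, lowest adjusted p = 0.111, for the V deletion). The out-of-frame share of unique in-frame and out-of-frame rearrangements was 28.7%, 27.7% and 28.0% in CD27loCX3CR1lo, 27.1%, 27.7% and 27.9% in CD27hiCX3CR1lo, 29.2%, 29.0% and 28.4% in CX3CR1hi, and 31.6%, 30.6% and 32.3% in the TILs. The TIL values lay above all others. The mean of CX3CR1hi and TILs exceeded that of the CX3CR1lo subsets by 2.31 ± 0.220 percentage points (SD over n = 3 experiments, higher in 3 of 3), with an exact permutation p = 0.00926, the smallest of 216 arrangements, and an adjusted p = 0.0741 over 8 measures, which did not pass. Without 1-base neighbours the difference was 0.778 points (exact adjusted p = 0.574) and the TIL values were 30.1%, 28.2% and 30.2%. By templates, the out-of-frame share was 24.1% to 33.7% over the 12 libraries and the difference was 0.0521 points (adjusted p = 0.991, exact).

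**Figure D4:**
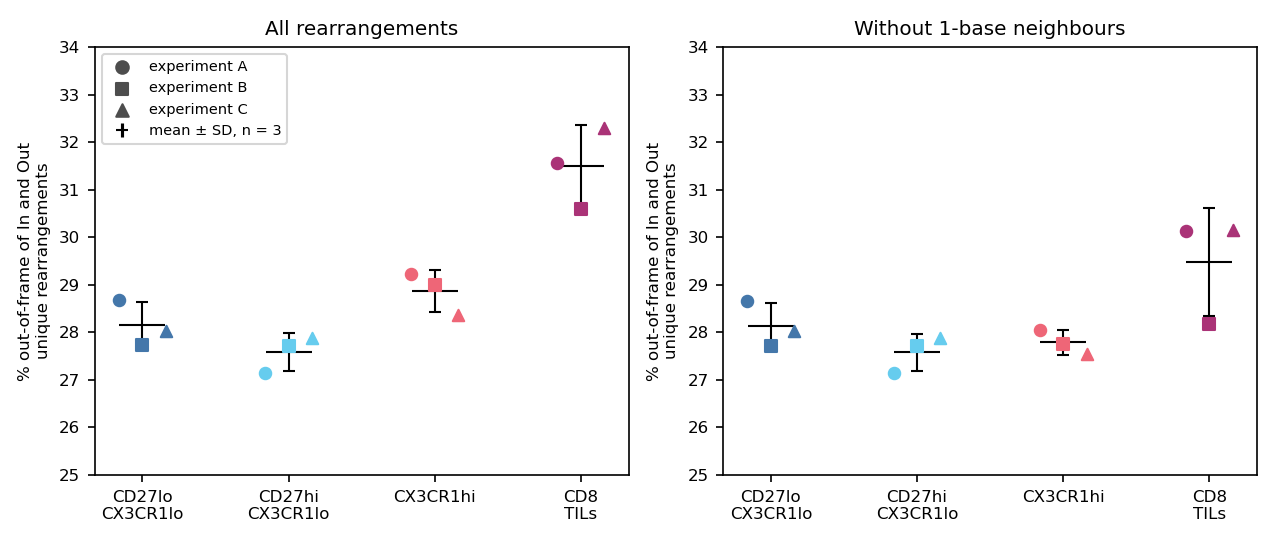
Out-of-frame share of unique in-frame plus out-of-frame rearrangements in each library, with all rearrangements (left) and without 1-base neighbours (right); symbols are experiments, bars mean ± SD (n = 3), and both vertical axes start at 25%. The TIL libraries lie at 30.6% to 32.3% on the left and 28.2% to 30.2% on the right, against 27.1% to 28.7% for the CX3CR1lo subsets.

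Template counts showed large passenger joins in CX3CR1hi cells and TILs. The 10 most abundant out-of-frame rearrangements held 27.6%, 46.2% and 48.7% of out-of-frame templates in CX3CR1hi and 33.1%, 51.7% and 44.9% in the TILs. They held 3.36%, 2.68% and 2.58% in CD27loCX3CR1lo and 0.427%, 0.610% and 0.626% in CD27hiCX3CR1lo. The groups did not overlap, and the difference was 40.3 ± 10.3 percentage points (SD, n = 3 experiments, exact permutation p = 0.00926, the smallest possible). The Simpson index, the chance that 2 templates drawn at random carry the same join, was 0.0116, 0.0888 and 0.0751 in CX3CR1hi and 0.0144, 0.0472 and 0.0258 in the TILs. It was at most 0.000424 in the 6 CX3CR1lo libraries (difference 0.0437 ± 0.0282, exact permutation p = 0.00926). In-frame templates were split among the groups in the same way. The 10 most abundant in-frame rearrangements held 20.2%, 32.1% and 19.9% of them in CX3CR1hi and 41.2%, 31.1% and 30.9% in the TILs. In the CX3CR1lo libraries they held at most 2.03%. The in-frame Simpson index was 0.00715 to 0.0350 in CX3CR1hi and TILs and at most 0.000133 in the CX3CR1lo libraries.

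The join shown for CX3CR1hi experiment C had 14919 templates, 25.8% of that library's out-of-frame templates, and the next had 2490. The largest in-frame rearrangement of the same library had 7191 templates, so the out-of-frame join had 2.07 times the templates of the largest in-frame one. A T cell with such a join also carries an in-frame allele. Template counts may therefore not follow cell numbers evenly for every join, which was not tested and limits the template shares, the Simpson index and the overlap. The join shown for CX3CR1hi experiment B had 5754 templates (28.9%), against 8948 for the largest in-frame rearrangement, and that for experiment A had 1118 (6.14%) against 2356. In the TILs the leading joins had 110, 712 and 542 templates. Without the leading join of every library the Simpson index of CX3CR1hi was 0.00888, 0.0110 and 0.0151, still above all CX3CR1lo libraries (exact permutation p = 0.00926), a setting chosen after the data were seen.

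Each leading join was found in more than 1 library of its own experiment and in no library of another experiment, and 5 of the 6 were found in both spleen and TILs. The join that led CX3CR1hi experiment C had 188 templates in the TILs, 66 in CD27loCX3CR1lo and 95 in CD27hiCX3CR1lo of that experiment. The join that led CX3CR1hi experiment B had 101, 44 and 50. The join that led CX3CR1hi experiment A had 12 templates in CD27loCX3CR1lo, 5 in CD27hiCX3CR1lo and 0 in the TILs. The joins that led the TILs in experiments A, B and C had 70, 255 and 657 templates in CX3CR1hi and 2, 15 and 8 in CD27loCX3CR1lo.

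Of the out-of-frame rearrangements of the TILs, 121 of 627 (19.3%), 243 of 683 (35.6%) and 459 of 1037 (44.3%) were found in CX3CR1hi of the same experiment, and they held 52.3%, 81.4% and 89.3% of the TIL out-of-frame templates. In CD27loCX3CR1lo of the same experiment 37, 67 and 96 were found, and in CD27hiCX3CR1lo 28, 62 and 102. These libraries held more unique out-of-frame rearrangements than CX3CR1hi. By out-of-frame templates, CX3CR1hi held 18218, 19941 and 57738. CD27loCX3CR1lo held 7179, 6752 and 8100, and CD27hiCX3CR1lo 19417, 18022 and 26517. The numbers found were not adjusted for template depth. Of the in-frame rearrangements of the TILs, 20.3%, 38.1% and 46.4% were found in CX3CR1hi of the same experiment. Those held 63.9%, 85.6% and 85.8% of the TIL in-frame templates, so such overlap was not particular to the out-of-frame set. Any splenic library of another experiment held 0 to 3 of the TIL out-of-frame rearrangements. The Morisita-Horn index, which weighs shared joins by their templates and runs from 0 to 1, was 0.330, 0.207 and 0.259 between CX3CR1hi and TILs out of frame. It was 0.0326, 0.0450 and 0.0490 for CD27loCX3CR1lo and 0.00524, 0.00467 and 0.00998 for CD27hiCX3CR1lo. The CX3CR1hi values did not overlap with the others, and the difference was 0.241 ± 0.0651 (SD, n = 3 experiments, exact permutation p = 0.0370, the smallest of 27 arrangements). Without the leading join of each library the CX3CR1hi values were 0.430, 0.443 and 0.445. The in-frame values for CX3CR1hi were 0.167, 0.189 and 0.283.

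**Figure D5:**
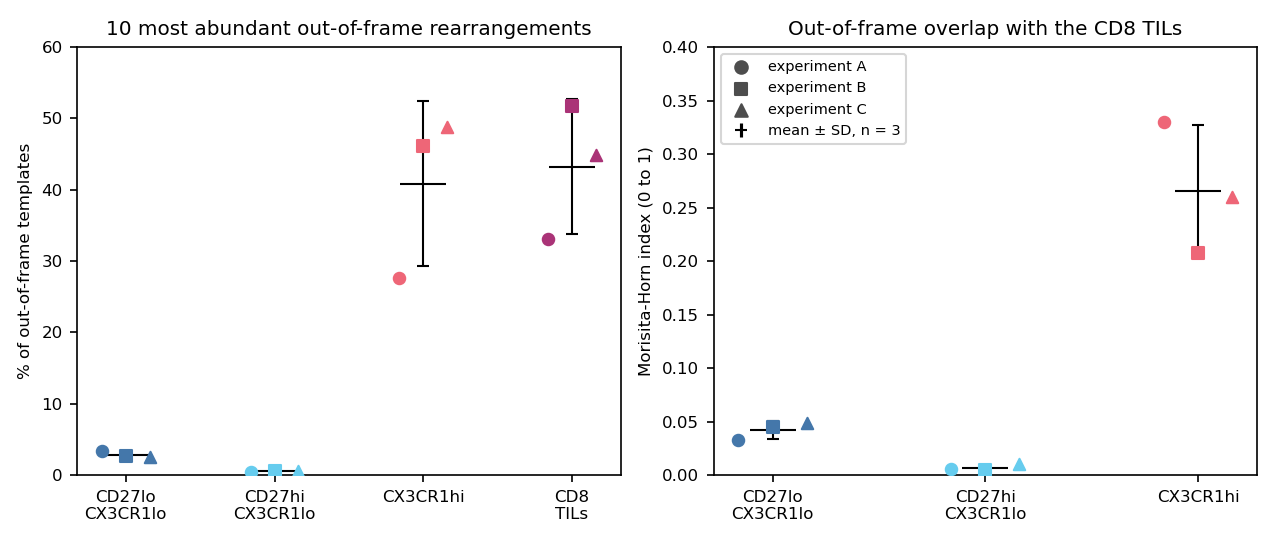
Percentage of out-of-frame templates held by the 10 most abundant out-of-frame rearrangements (left) and Morisita-Horn overlap of out-of-frame rearrangements with the CD8 TILs of the same experiment (right); symbols are experiments and bars mean ± SD (n = 3). CX3CR1hi and TILs lie at 27.6% to 51.7% on the left against at most 3.36%, and CX3CR1hi at 0.207 to 0.330 on the right against at most 0.0490.

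Across experiments, out-of-frame joins were rarely shared. Of 77616 distinct out-of-frame joins, 77376 were found in 1 experiment, 238 in 2 and 2 in 3. Of 193848 in-frame rearrangements, 4403 were found in 2 experiments and 503 in 3. In the deepest group, CD27hiCX3CR1lo, pairs of experiments shared 36, 38 and 41 out-of-frame joins, or 0.156, 0.113 and 0.133 per 1000000 pairs compared, and 0.506 to 0.530 in-frame rearrangements per 1000000 pairs. The in-frame rate was 3.88 times the out-of-frame rate (SD of the 3 pairwise ratios 0.676, not tested). Out-of-frame CDR3 lengths fall into 2 classes, 1 or 2 bases over a multiple of 3, and in-frame lengths into 1. The effect of this on the sharing rates was not tested, and the ratio was not adjusted for it. The rate fell with the number of N bases in both sets. Out of frame it was 10.1 per 1000000 pairs for joins with no N base (53 shared), 0.843 for 1 to 2 bases (48 shared), 0.158 for 3 to 4 (13 shared) and 0.00878 for 5 or more (1 shared). The in-frame rates in these classes were 26.8, 2.82, 0.618 and 0.0687. Out-of-frame joins found in 2 experiments averaged 1.26 N bases and 43.3% of them had none, against 3.97 bases and 7.45% for those found in 1.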

How the data were processed

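Genomic DNA was sequenced at the TCR beta locus on the immunoSEQ platform. The authors deposited 1 table per library, in which the immunoSEQ software had assigned V, D and J genes, the deleted and inserted bases and the frame status. Its version was not given in the sources used here, and the labels name the build mm10. The deposited counts are templates per rearrangement, and the deposited fractions were not used. Out-of-frame rows were compared with in-frame rows of the same library, and stop-codon rows were left out except from the denominator of the out-of-frame share per gene. Unique rearrangements per gene were tested in R 4.3.3 with edgeR 4.0.16 (quasi-likelihood, library as a term, experiment as the replicate block, genes with at least 10 out-of-frame rearrangements, V and J totals as library sizes). DESeq2 1.42.0, TMM, other filters, templates, and removal of each experiment were alternatives. Values per library were tested by exact, two-sided permutation (numpy 2.4.6, scipy 1.17.1). On simulated counts for 40 genes, all 1.25-fold changes between in-frame and out-of-frame use (100%) and 97.5% of 1.5-fold changes between groups were recovered. Changes were planted only in genes with high counts, and group changes in CX3CR1hi and TILs together. Recovery for low-count genes and for differences in TILs alone was not measured. Same-experiment libraries were paired because they come from the same mice. Deviations of out-of-frame gene use from the group means correlated at -0.034 to 0.30 (median 0.12, 18 pairs) within experiments. Between experiments they correlated at -0.35 to 0.27 (median -0.064, 36 pairs). These ranges overlap, and deviations from a group mean cancel over its experiments, so the medians are not independent. TIL joins were found almost only within their experiment. Full statistics are given for the 5 highest and 5 lowest called ratios and for genes called among groups. Members, genes and lists were chosen with earlier results of these data known. Gene names follow the tables, and positions and gene types are those of the RefSeq table of GRCm38.p6, matched by name.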

Additional observations from a re-analysis of the deposited data

Results flagged for a closer look

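TCRBJ02-07 stood out because its in-frame to out-of-frame ratio differed among the 4 groups (edgeR adjusted p = 0.00355). The log2 ratio was 0.16 in CD27loCX3CR1lo, 0.29 in CD27hiCX3CR1lo, 0.15 in CX3CR1hi and -0.12 in the TILs. The CX3CR1hi value was near that of CD27loCX3CR1lo, and only the TIL value was negative. The mean of CX3CR1hi and TILs was below that of the CX3CR1lo subsets by 0.21 ± 0.04 on the log2 scale. The adjusted p for TCRBJ02-07 ran from 0.0599 to 0.949 in the alternatives in which the call was lost. The share of 1-base neighbours was higher in both CX3CR1hi and TILs than in the CX3CR1lo subsets. Without these neighbours the adjusted p was 0.0864.

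TCRBV04-01 stood out in the stop-codon rows, which entered the report only in the denominator of the out-of-frame share per gene and in an alternative setting. It held 1484 of all 3085 stop-codon rearrangements (48.1%). They were 8.84% of its 16785 rearrangements (Wilson 95% interval 8.42% to 9.28%), where a count of 0 would allow 0.0179%. The share was 5.92% to 9.62% in the 12 libraries, against 0.473% to 0.892% for the other V genes together.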

How the results depend on the processing

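Of the 10 genes with the highest and lowest ratios, all kept their direction in 119 refits and lost the call in 2. Genes called in frame against out of frame numbered 29 to 31 when 1 experiment was left out, 33 without the replicate block and 15 by templates. Genes whose ratio differed among groups numbered 0 with DESeq2, with at least 2 templates and without 1-base neighbours, and 0 to 2 with 1 experiment left out. Genes whose out-of-frame use differed numbered 4 with DESeq2, 2 by templates, 14 with at least 2 templates, 4 without 1-base neighbours, 5 without the replicate block, and 2 to 5 with 1 experiment left out. The difference in out-of-frame share, 2.31 points, passed without the replicate block (adjusted p = 0.0346, exact permutation). That by templates turned to -0.295 without 1-base neighbours, -0.175 with stop-codon rows added, and ran from -1.54 to 1.53 with 1 experiment left out. Weighted by templates, CDR3 length (-0.302), V deletion (-0.144) and J deletion (0.0579) no longer passed, nor did J deletion with stop-codon rows (0.0487). The weighted CDR3 difference was 4.09 bases in CX3CR1hi experiment C, where the leading join, with a CDR3 of 25 bases, held 25.8% of out-of-frame templates. That difference was 0.178 in TIL experiment C and negative in the other libraries. With the replicate block as 3 experiment means, CDR3 length (-0.632), its SD (-0.609), N insertions (-0.532), joins without N (1.36), V deletion (-0.228) and J deletion (0.0526) could not pass. With 1 experiment left out, the exact permutations over groups could not pass (smallest p 0.0556, or 0.111 for overlap): the Simpson difference was 0.0316 to 0.0591, that of the top 10 share 36.8 to 46.3, and that of the Morisita-Horn index 0.206 to 0.271. J deletion was 0.0399 to 0.0681, and the sharing ratio 3.35 to 4.68. The cause was not tested. Depth limits the TILs most, with 627 to 1037 out-of-frame rearrangements.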
